A study of Mus musculus with 10 samples.

Results

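The guide strands of the miR-30 family are miR-30a, miR-30b, miR-30c, miR-30d and miR-30e, the arms of the miR-30 hairpins that are loaded into Argonaute and direct it to messenger RNAs. They were chosen by name among the miRNAs on an Illumina miRNA BeadChip, and make up 5 of its 655 probes. Livers of 2 groups of FVBN mice aged 4 months were profiled, 5 wild-type (WT) and 5 LivPGC-1α, with 1 array per sample. LivPGC-1α mice carry a human PGC-1α transgene under an Apolipoprotein E promoter, which is active in the liver, and WT mice carry none. The animals of both groups ate a standard diet and were fasted overnight before the liver was taken. The number of founder lines and the sex of the animals are not given in the sources used here, and the labels do not state that each sample is a separate mouse, so the p-values cover the spread between these liver samples, which may be in part technical. The level of PGC-1α itself is not measured by a miRNA array and was not analysed here.

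A miRNA recognises its targets mainly through its seed, the bases near its 5′ end, so that miRNAs with a common seed can act on common targets. The miR-30 family is broadly expressed in epithelial tissues. It is known for restraining connective tissue growth factor. In the liver of mice, miR-30c is known for lowering the microsomal triglyceride transfer protein that loads lipid onto lipoproteins. PGC-1α is a coactivator of the fasting response, mitochondrial biogenesis and gluconeogenesis. The comparison asks whether its hepatic overexpression goes along with a change of miRNA levels.

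RefSeq tables of the GRCm38.p6 build held 3 of the 5 guide strands. They are shown for the seed they share and the few bases in which they differ. Each is written 5′ to 3′ with the seed, bases 2 to 8, in capitals.
miR-30a: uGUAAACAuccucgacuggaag
miR-30e: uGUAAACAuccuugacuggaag
miR-30c: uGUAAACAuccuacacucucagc

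miR-30a lies at chr1:23272274-23272295 on the plus strand and miR-30e at chr4:120772660-120772681 on the minus strand. Counting from 1 at the 5′ end, they differ by C13U alone. miR-30c comes from both of its hairpins, at chr1:23291714-23291736 (plus strand) and chr4:120769584-120769606 (minus strand), and differs from miR-30a by C13A, G14C, G18C, G19U and A20C. A probe for miR-30c therefore cannot tell the hairpins apart, and how far the probes for miR-30a and miR-30e cross-hybridise was not tested. The array table places miR-30b and miR-30d on chromosome 15.

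The hairpin Mir30c-2 starts 19361 bases beyond Mir30a on chromosome 1. Mir30c-1 and Mir30e are separated by 2983 bases on chromosome 4, and both lie within Nfyc, which encodes a subunit of the CCAAT-binding factor NF-Y. No protein-coding gene overlaps the other hairpins in the gene table. The miR-30c hairpins are shown because they yield the same guide strand but different passenger strands, the opposite arms that are mostly discarded, with both arms in capitals.
Mir30c-1: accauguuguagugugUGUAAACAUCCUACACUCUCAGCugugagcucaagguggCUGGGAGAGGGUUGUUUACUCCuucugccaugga
Mir30c-2: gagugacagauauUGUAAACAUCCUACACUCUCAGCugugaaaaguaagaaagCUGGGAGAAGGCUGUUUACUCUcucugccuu

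Mir30c-1 spans chr4:120769534-120769622 on the minus strand, and Mir30c-2 spans chr1:23291701-23291784 on the plus strand. The passenger strands carry other seeds. Those of the miR-30a and miR-30e hairpins share 1 seed, and those of both miR-30c hairpins share another.
miR-30a*: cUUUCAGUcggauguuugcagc
miR-30e*: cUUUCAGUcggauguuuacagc
miR-30c-1*: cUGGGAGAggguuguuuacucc
miR-30c-2*: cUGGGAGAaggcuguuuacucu

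miR-30a* differs from miR-30e* by G18A, and miR-30c-1* from miR-30c-2* by G9A, U12C and C22U. Of the 1679 mature mouse miRNAs in the table, 4 have the guide strands' seed, and the only one outside the family is miR-384-5p. It lies at chrX:105344332-105344354 on the minus strand and is shown for the common seed followed by unrelated bases.
miR-384-5p: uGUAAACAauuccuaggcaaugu

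The miR-30 guide strands were among the brightest probes of every liver. Each was detected on all 10 arrays, with a detection p (the chance that a negative control of that array is as bright) of 3.68e-38, and they ranked between 21 and 41 of 655 by scanner signal. Within an array the brightest guide strand exceeded the dimmest by 2.02% to 6.34%. Signal depends on the probe as well as on the RNA, so a closer or wider gap between probes is no measure of abundance. miR-384-5p was detected on no array.

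The 10 arrays lay on 1 chip, with WT on positions 1 to 5 and LivPGC-1α on positions 6 to 10, so an effect of position and one of genotype cannot be told apart. The median scanner signal ranged from 1758 to 2435, and 423 to 482 probes per array had a detection p at or below 0.01. WT 1, WT 3 and WT 5 stood apart, with a SD of 0.37, 0.33 and 0.37 in log2 deviation from the WT mean over all tested probes against 0.16 and 0.17 for the other WT arrays. The 5 hepatocyte markers were detected on every array and their summed normalized signal overlapped between groups, with WT between 172757 and 181754 and LivPGC-1α between 176411 and 180282. The summed striated muscle markers reached 99224 on WT 1 against 6650 to 8219 on the other WT arrays and 7095 to 7509 on LivPGC-1α arrays. Summed erythroid markers ranged from 106074 to 126222 in WT and from 100281 to 112733 in LivPGC-1α. Leukocyte markers ranged from 97183 to 119109 and from 108866 to 122880. The part of these differences in the results below was not tested.

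The scanner signals themselves moved together across the family. miR-30a read 37886, 45174, 44211, 38356 and 45483 on WT arrays 1 to 5 and 45694, 45668, 43214, 43602 and 43220 on LivPGC-1α arrays 1 to 5. miR-30e read 37262, 44714, 43161, 37874 and 44038 in WT and 45816, 46920, 44378, 43744 and 43410 in LivPGC-1α. WT 1 and WT 4 were the lowest arrays for both strands, and for miR-30b, miR-30c and miR-30d as well. The brightest probe of any kind was also dimmest on these arrays, at 50062 on WT 1 and 50910 on WT 4 against 55016 to 57741 on the other arrays.

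Quantile normalization, the scaling that the study's methods name, gives all arrays the same set of values, so that a normalized signal is set by a probe's rank on its array. It narrowed the spread of every guide strand by differing amounts. The SD on the log2 scale in WT went from 0.13 in the scanner signal to 0.0068 for miR-30a, the most narrowed, and from 0.13 to 0.040 for miR-30e, the least. In LivPGC-1α the SD of miR-30a went from 0.042 to 0.026 and that of miR-30e from 0.047 to 0.013.

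**Figure D1:**
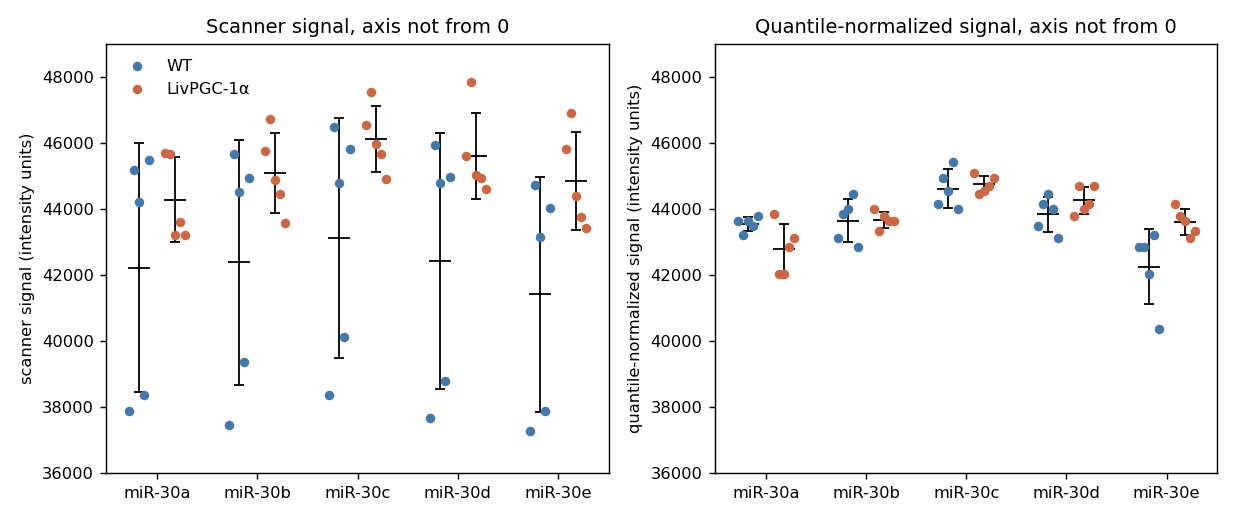
Scanner signal (left) and quantile-normalized signal (right) of the 5 miR-30 guide strands in intensity units, with 1 point per array, WT in blue and LivPGC-1α in orange, and bars for the mean ± SD (n = 5). The 2 lowest WT points of each strand in the left plot are WT 1 and WT 4, and after normalization the groups overlap for every strand.

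No miR-30 guide strand changed in LivPGC-1α liver by the test over all probes. limma called 0 of 5 at an adjusted p under 0.05, against 2 of the 513 probes tested (0.39%), and 0 of 5 at an unadjusted p under 0.05, against 74 of 513 (14.4%). The groups overlapped for all 5, whereas they did not for 25 of 513 probes (4.87%). The fold changes lay between 0.982 and 1.03. The 95% confidence intervals together ran from 0.948-fold to 1.07-fold in normalized signal under this scaling. Their width rests on the spread of each strand between arrays after limma moderates it towards that of all probes.

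miR-30e, encoded within Nfyc, had the largest difference in the family. Its normalized signal was 42836, 42836, 42021, 43225 and 40359 on WT arrays 1 to 5 and 44162, 43773, 43622, 43125 and 43327 on LivPGC-1α arrays 1 to 5. All LivPGC-1α arrays but the fourth lay above every WT array, and WT 5 was lowest. The means were 42255 ± 1147 and 43602 ± 402 (SD, n = 5), a log2 change of 0.046 ± 0.026 (SE; 1.03-fold; limma adjusted p = 0.474, unadjusted 0.113). With a linear term for chip position, which runs with genotype, the change was 0.10 ± 0.052 (SE, limma adjusted p = 0.696). An exact two-sided permutation test on this strand alone gave an unadjusted p of 0.0159, and 0.103 on scanner signals. On normalized values the same test gave p from 0.198 to 0.976 for miR-30b, miR-30c and miR-30d. The share of all probes that pass it was not computed. limma moderates each error towards that of all probes, whose median SD in WT was 0.11.

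miR-30a, from the chromosome 1 hairpin, was the only guide strand with a lower mean in LivPGC-1α. Its normalized signal was 43622, 43225, 43622, 43482 and 43773 in WT and 43854, 42021, 42021, 42836 and 43125 in LivPGC-1α. LivPGC-1α 1 was the highest of the 10 arrays and the other 4 LivPGC-1α arrays lay below every WT array. The means were 43545 ± 206 and 42771 ± 779 (SD, n = 5), a log2 change of −0.026 ± 0.023 (SE; limma adjusted p = 0.659), with an exact permutation p of 0.0714.

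miR-30c, made from hairpins on chromosomes 1 and 4, gave nearly equal group means. Its normalized signal was 44162, 44947, 44558, 45416 and 43989 in WT and 45076, 44447, 44558, 44683 and 44947 in LivPGC-1α, and the LivPGC-1α values fell inside the WT range. The log2 change was 0.0042 ± 0.021 (SE, 95% confidence interval −0.044 to 0.052, limma adjusted p = 0.967).

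The chromosome 15 strands also overlapped between groups. miR-30b had normalized signals of 43125, 43854, 43989, 44447 and 42836 in WT and 43989, 43327, 43773, 43622 and 43622 in LivPGC-1α. Its log2 change was 0.00066 ± 0.022 (SE, limma adjusted p = 0.998). miR-30d had normalized signals of 43482, 44162, 44447, 43989 and 43125 in WT and 43773, 44683, 43989, 44162 and 44683 in LivPGC-1α. LivPGC-1α 2 and 5 were its highest arrays, and the log2 change was 0.014 ± 0.022 (SE, limma adjusted p = 0.845).

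The passenger strands report on the same hairpins. The array holds 5 of them, miR-30a*, miR-30b*, miR-30c-1*, miR-30c-2* and miR-30e*. limma called 0 of 5 at an adjusted p under 0.05, beside 0.39% of all probes, and 1 of 5 at an unadjusted p under 0.05, beside 14.4%, so that 1 in 5 is near the share over all probes. That strand was miR-30c-2*, whose normalized signal was 7419, 7917, 7254, 7329 and 6713 in WT and 8044, 7917, 7329, 7917 and 8461 in LivPGC-1α. Its groups overlapped at LivPGC-1α 2, 3 and 4, and the log2 change was 0.12 ± 0.050 (SE; limma adjusted p = 0.327, unadjusted 0.0465; exact permutation p = 0.0794). With arrays left out in turn the unadjusted limma p stayed under 0.05 only without WT 2 or LivPGC-1α 3, and without WT 1, WT 3 and WT 5 together the change was 0.051.

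miR-30e* was the brightest passenger probe, with normalized signals of 21305, 22043, 20421, 21149 and 19913 in WT and 22474, 22043, 23311, 22295 and 19731 in LivPGC-1α. The lowest and the highest array were both LivPGC-1α arrays, and the log2 change was 0.066 ± 0.048 (SE, limma adjusted p = 0.593). It was 0.10 without LivPGC-1α 5 (limma adjusted p = 0.261) and 0.21 when arrays were divided by the 75th percentile over all probes, the only setting that called it (limma adjusted p = 0.0474). miR-30c-1*, the Nfyc-encoded partner of miR-30c, measured 4824 ± 254 in WT and 4977 ± 601 in LivPGC-1α (SD, n = 5), and miR-30a* measured 14806 ± 879 and 14873 ± 519. miR-30b* stood near the detection limit, was detected on 4 WT and 4 LivPGC-1α arrays, and measured 1083 ± 25.5 and 1140 ± 120. The limma adjusted p of these 3 strands was between 0.707 and 0.967.

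**Figure D2:**
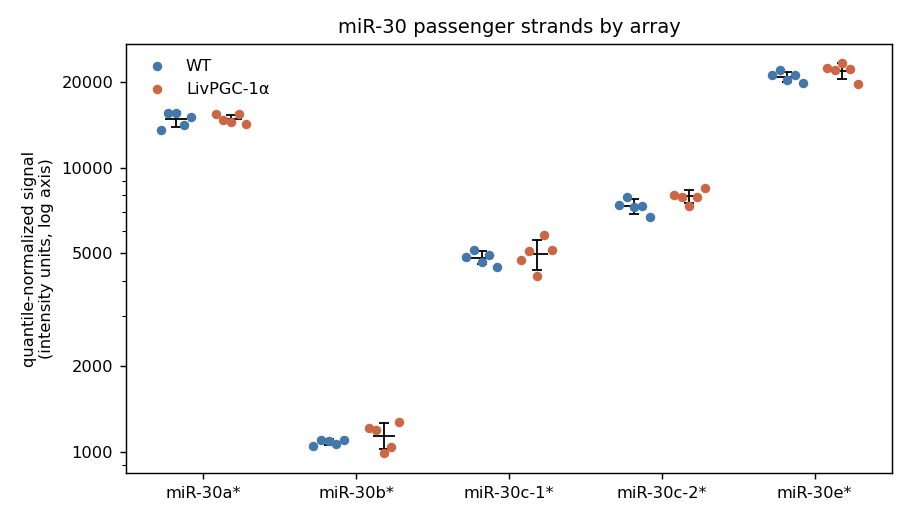
Quantile-normalized signal (intensity units, log axis) of the 5 miR-30 passenger strands, with 1 point per array, WT in blue and LivPGC-1α in orange, and bars for the mean ± SD (n = 5). The groups overlap for all 5 strands.

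The median log2 change was 0.0042 over the guide strands and 0.066 over the passenger strands, beside 0.012 over all 513 probes. Of the guide strands 4 of 5 had a change above 0, of the passenger strands 5 of 5, and of all probes 292 of 513. Probes with a mean normalized signal over 40000 varied little as a group: the 39 such probes, all guide strands among them, had a median SD of 0.019 in WT and 0.015 in LivPGC-1α and a median absolute log2 change of 0.010. The medians of the guide strands were 0.019, 0.013 and 0.014. The other 474 probes had 0.12, 0.087 and 0.072. How far signal still follows the amount of RNA at this bright end was not tested. The narrow intervals therefore concern the change in quantile-normalized signal, and not that in scanner signal or in RNA.

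The call for the family and the size of its changes depended on the scaling, and the direction did so for miR-30a. When each array was divided by the 75th percentile over all its probes, 5 of 5 guide strands were called higher in LivPGC-1α, against 80 of 513 probes called in either direction (15.6%). Their log2 changes were 0.16, 0.18, 0.19, 0.20 and 0.21 in the order miR-30a to miR-30e, with limma adjusted p from 0.0405 to 0.0486. The median change of all probes was 0.075 under that scaling. The percentile itself was 8337 to 11341 on WT arrays and 8879 to 9710 on LivPGC-1α arrays. With this scaling 0 of 5 guide strands were called when WT 1, WT 2, WT 3 or any LivPGC-1α array was left out, 2 without WT 5 and 5 without WT 4. Where 0 were called the median change of the guide strands was still 0.16 to 0.20. In those fits 5 of 5 had an unadjusted p under 0.05, beside 136 to 161 of the 498 to 513 probes tested. The adjusted calls over all probes fell from 80 to between 4 and 13.

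With a percentile taken only over the 408 probes that every array detected, 0 of 5 were called and the changes ran from 0.026 for miR-30a to 0.072 for miR-30e, beside a median of −0.059 over all probes. With no normalization they ran from 0.073 to 0.12, and with cyclic loess from −0.014 to 0.032, again with 0 of 5 called. The order of the changes, from miR-30a lowest to miR-30e highest, was the same under each of these scalings. Percentile scaling and no normalization shift the changes of all strands equally, so an equal order among them was fixed in advance.

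**Figure D3:**
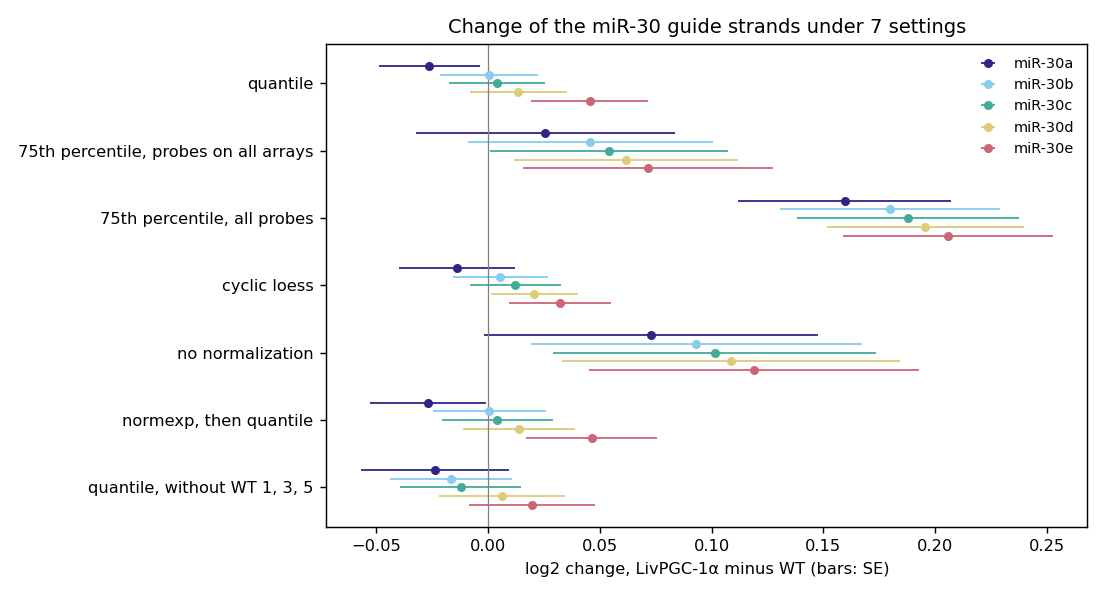
Log2 change (LivPGC-1α minus WT, horizontal axis) of each miR-30 guide strand under 7 settings, with points for the limma estimate and bars for its SE. The changes lie near 0 under quantile normalization and between 0.16 and 0.21 under the 75th percentile over all probes, and miR-30a is lowest and miR-30e highest in each. Percentile scaling and no normalization shift all strands equally, so their order is the same by construction.

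Ratios between guide strands of 1 array are free of any scale factor of that array, and show unequal change only. Of the 10 pairs, 3 differed between genotypes at an exact two-sided permutation p under 0.05, and 0 of 10 after Benjamini-Hochberg adjustment over the pairs. The same threshold was passed by 20.3% of the ratios between probes detected on all arrays and by 19.8% of those between probes with a mean normalized signal over 40000. The clearest was miR-30a against miR-30e, the strands that differ by C13U. Their log2 ratio of scanner signals was 0.024, 0.015, 0.035, 0.018 and 0.047 on WT arrays 1 to 5. On LivPGC-1α arrays 1 to 5 it was −0.0038, −0.039, −0.038, −0.0047 and −0.0063. The ratio was above 0 on every WT array and below 0 on every LivPGC-1α array.

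The ratio was lower by 0.046 ± 0.010 on the log2 scale (SE, 0.969-fold), with an exact permutation p of 0.00794, the smallest that 5 against 5 arrays allow, and an adjusted p of 0.0794. Groups that do not overlap were found for 6.68% of the 83028 ratios between probes detected on all arrays, and for 3.78% of the 741 ratios between probes with a mean normalized signal over 40000, against 1 of 10 here. Leaving out 1 array at a time gave differences from −0.050 to −0.041. Without WT 1, WT 3 and WT 5 the difference was −0.035 and the exact p 0.0952.

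The other pairs past an unadjusted p of 0.05 were miR-30a against miR-30d, lower by 0.036 ± 0.015, and miR-30b against miR-30e, lower by 0.026 ± 0.0099 (SE; exact permutation p = 0.0397 and adjusted p = 0.132 for each). The first had an exact p under 0.05 only without WT 2 or LivPGC-1α 1 when arrays were left out in turn, and the second only without WT 1, LivPGC-1α 3 or LivPGC-1α 4. The differences themselves stayed between −0.047 and −0.030 for the first and between −0.032 and −0.020 for the second. The strands that share a chromosome gave differences of −0.028 for miR-30a against miR-30c (exact p = 0.0794), −0.016 for miR-30b against miR-30d (exact p = 0.167) and −0.018 for miR-30c against miR-30e (exact p = 0.190). With quantile-normalized values 3 pairs again had an exact p under 0.05, but not the same ones: miR-30c against miR-30e entered (−0.041, exact p = 0.0238) and miR-30a against miR-30d left (−0.040, exact p = 0.0635). miR-30a against miR-30e was then −0.072 (exact p = 0.00794). Guide against passenger strand, the difference in log2 ratio was 0.088 for miR-30a, 0.097 for miR-30b, 0.12 for miR-30c against miR-30c-1*, 0.055 for miR-30c against miR-30c-2* and −0.0075 for miR-30e. Exact permutation p ran from 0.103 to 0.921 over these 5.

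**Figure D4:**
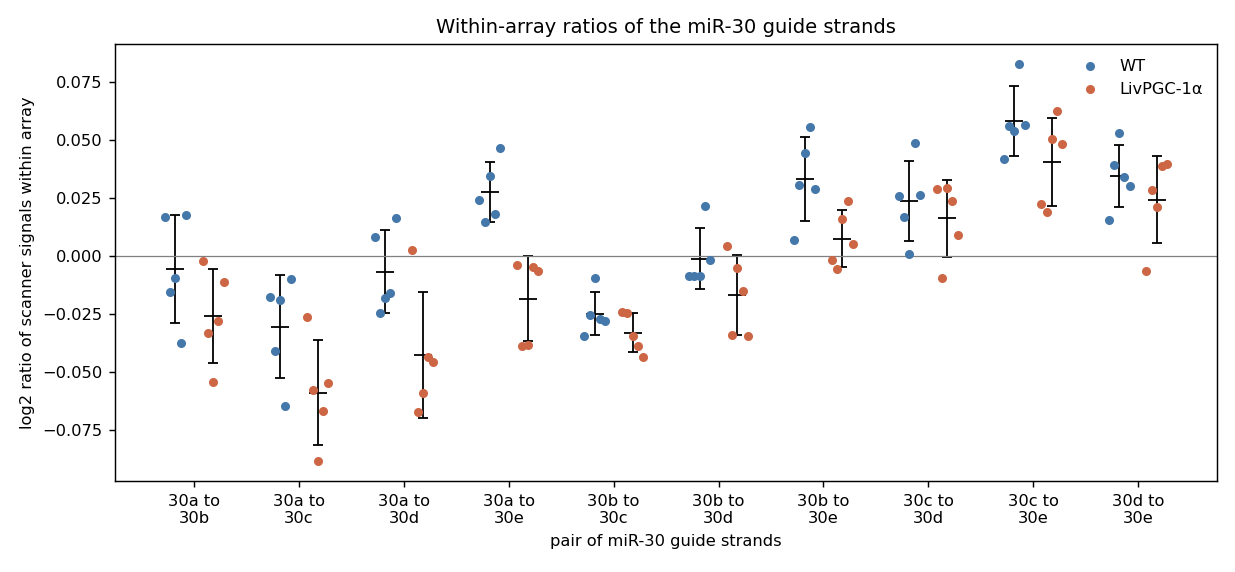
Log2 ratio of scanner signals within an array (vertical axis) for the 10 pairs of miR-30 guide strands, with 1 point per array, WT in blue and LivPGC-1α in orange, and bars for the mean ± SD (n = 5). The groups are apart only for 30a to 30e, where WT lies between 0.015 and 0.047 and LivPGC-1α between −0.039 and −0.0038.

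Whether the guide strands varied together between livers of 1 genotype was described by correlation over the 10 arrays after the mean of each genotype was removed. The points share the rank-based scaling and the narrow signal range. With quantile normalization the median Pearson's r over the 10 pairs was 0.36, from −0.34 for miR-30a with miR-30d to 0.90 for miR-30b with miR-30c, and 8 of 10 were above 0. All pairs of the 408 probes detected on every array had a median of 0.069, with 46746 of 83028 above 0. Pairs of the 39 probes over 40000 had 0.23, with 541 of 741 above 0. The 9 let-7 guide strands had 0.29, with 29 of 36 pairs above 0, and the 3 miR-29 guide strands −0.13, with 1 of 3.

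miR-30b and miR-30c, which come from different chromosomes, were the closest pair. Pearson's r was 0.90 (exact permutation within genotypes, p = 0.00597, adjusted over 10 pairs 0.0597) and Spearman's rho 0.86 (exact permutation p = 0.0197, adjusted 0.197). Without WT 4 and WT 5, the arrays on which miR-30b was farthest from its median, r was 0.75. It was 0.94 in WT and 0.71 in LivPGC-1α. Pairs from 1 chromosome had r of 0.65 (miR-30c with miR-30e), 0.44 (miR-30b with miR-30d) and 0.22 (miR-30a with miR-30c), inside the range of the other pairs. Without the 2 arrays farthest from the median of the first-named strand they fell to 0.072, 0.13 and −0.043, so that these values rest on those arrays. For miR-30a with miR-30c these were LivPGC-1α 1 and LivPGC-1α 3, the latter tied with LivPGC-1α 2.

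Scaling set most of this. The median r of the guide strands was 0.75 with cyclic loess, 0.98 with a 75th percentile over commonly detected probes and 0.99 with no normalization, and for pairs of probes over 40000 it was 0.44, 0.96 and 0.97. The values for all pairs were −0.0014, 0.15 and 0.56. For the let-7 guide strands they were 0.42, 0.83 and 0.91, and for the miR-29 guide strands 0.50, 0.97 and 0.97.

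**Figure D5:**
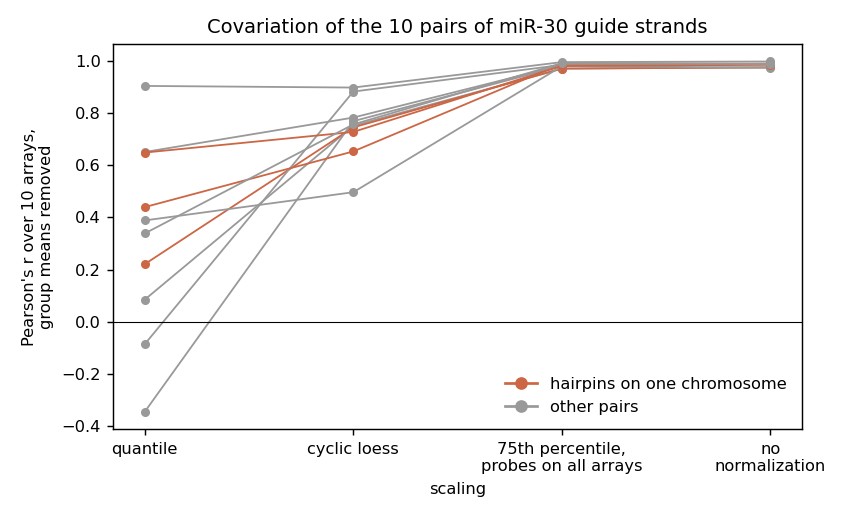
Pearson's r (vertical axis) of the 10 pairs of miR-30 guide strands over 10 arrays with genotype means removed, under 4 scalings, with pairs whose hairpins lie on 1 chromosome in orange. The pairs spread from −0.34 to 0.90 under quantile normalization and all lie above 0.96 under a 75th percentile over commonly detected probes.

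The probes most like each guide strand under quantile normalization were named among the 407 others detected on all arrays. For miR-30a they were miR-676 (r = 0.91), miR-18a (0.82) and miR-29a (0.80). For miR-30b they were miR-872* (0.94), miR-30c (0.90) and miR-99b (0.82), and for miR-30c they were miR-30b (0.90), miR-99b (0.90) and miR-501-5p (0.89). miR-30d was most like miR-151-3p (0.90), miR-335-3p (0.88) and miR-125a-5p (0.86), and miR-30e most like miR-139-5p (0.90), a probe named miR-101a (0.85) and miR-467e (0.85). Each is among the 3 highest of 407 values over 10 arrays, and only miR-30b and miR-30c named each other. The names depended on the scaling. With a 75th percentile over commonly detected probes miR-30a was most like let-7b, miR-192 and miR-27a, while miR-30b and miR-30c still named each other.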

How the data were processed

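Total liver RNA was hybridised by the authors to Illumina Universal BeadChips with a miRNA profiling kit and scanned on an iScan. The authors deposited GenomeStudio signal intensities without background subtraction or scaling, with a detection p-value per probe against the negative controls of its array, as deposited. No source used here gives the tool's version. A second deposited table holds the authors' quantile-normalized intensities on a linear scale, and was used as an alternative.

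Here the deposited intensities were quantile-normalized over 655 probes (floor 1, no offset) and log2-transformed. Probes with a detection p of at most 0.01 on at least 1 array were tested (513). LivPGC-1α was compared with WT on 5 arrays each by limma (version 3.58.1, R 4.3.3) without covariates, with Benjamini-Hochberg adjustment over all 513 probes. The limma fit was tested on simulated data with changes larger than those of the miR-30 strands. Within-array ratios used log2 scanner signals and exact two-sided permutation tests over arrays. Sequences came from RefSeq (GRCm38.p6), matched by miRNA name for 3 of 5 guide and 4 of 5 passenger strands. Members and lists were chosen with earlier results of these data known. Named miRNAs were the members, the passenger strands, the 3 most like probes per member and the marker lists. Array number limits the precision. Other scalings, filters, array weights, a chip position term, a replicate block and omission of arrays were tried as alternatives.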

Additional observations from a re-analysis of the deposited data

How the results depend on the processing

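Of the 5 guide strands, 0 passed an adjusted p under 0.05 under any setting other than the 75th percentile over all probes. Under it 5 passed by limma adjusted p, beside 80 of 513 probes, and 5 by unadjusted p, beside 168 of 513. Leaving arrays out of that scaling, chosen after seeing the data, gave between 0 and 5 by adjusted p. Without WT 1, WT 3 and WT 5 together, 0 of 5 guide strands and 0 of 489 probes passed an adjusted p under 0.05. An unadjusted p under 0.05 was then found for 4 of 5 guide strands, beside 81 of 489 probes. The median change of the guide strands was then 0.17 against 0.19 with all arrays. With a robust variance trend 1 guide strand, miR-30e, had an unadjusted limma p under 0.05 (0.0321, adjusted 0.304), beside 69 of 513 probes. Under that percentile the log2 changes were 0.16 (miR-30a, turned), 0.18 (miR-30b), 0.19 (miR-30c), 0.20 (miR-30d) and 0.21 (miR-30e). miR-30a also turned direction with a 75th percentile over commonly detected probes (0.026) and with no normalization (0.073). miR-30b turned with array weights (−0.0034), and without WT 1, WT 3 and WT 5 miR-30b (−0.016), miR-30c (−0.012), miR-30c-1* (−0.032) and the ratio of miR-30a to miR-30b (0.00076) turned. Of the passenger strands, a 75th percentile over commonly detected probes turned miR-30a* (−0.062), miR-30b* (−0.051), miR-30c-1* (−0.070) and miR-30c-2* (−0.00088), no normalization turned miR-30a* (−0.015), miR-30b* (−0.0036) and miR-30c-1* (−0.023), and cyclic loess turned miR-30a* (−0.033). The cause of these turns was not tested.

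Leaving out each array in turn, the log2 change ranged from −0.036 to −0.020 for miR-30a, −0.0058 to 0.0068 for miR-30b, −0.00089 to 0.010 for miR-30c, 0.0077 to 0.019 for miR-30d, 0.031 to 0.052 for miR-30e, −0.021 to 0.026 for miR-30a*, 0.030 to 0.12 for miR-30b*, −0.018 to 0.10 for miR-30c-1*, 0.083 to 0.15 for miR-30c-2* and 0.044 to 0.10 for miR-30e*. The number of pairs whose ratio differed at an exact p under 0.05 ranged from 1 to 3 against 3 with all arrays, and was 1 without WT 3, WT 5, LivPGC-1α 2 or LivPGC-1α 5 and 1 without WT 1, WT 3 and WT 5. The median r of the guide strands ranged from 0.16 to 0.53. It was 0.98 with a 75th percentile over commonly detected probes, 0.75 with cyclic loess and 0.99 with no normalization.

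A linear term for chip position moved miR-30e to 0.10, miR-30c-2* to 0.18 and miR-30e* to 0.22 (limma adjusted p = 0.696, 0.722 and 0.696). The replicate numbers of the labels did not pair the arrays: correlations of same-numbered deviations were −0.15, 0.33, −0.13, −0.12 and −0.37, and 1 WT array correlated best with its own number. With the replicate block 0 of 5 guide strands passed (miR-30e 0.046, adjusted p = 0.616), and 0 of 10 ratios had p under 0.05, the smallest possible p for 5 pairs by sign flips being 0.0625.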
